A study of Mus musculus with 24 samples.

Results

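The subject is how the effect of MitoCDNB on liver RNA changed between 1 h and 4 h after an injection. For each gene, the log2 fold change of MitoCDNB against vehicle at 1 h was subtracted from the same fold change at 4 h. A negative difference therefore means that the effect was more negative at 4 h than at 1 h, and a positive one that it was more positive. All 24 of the 24 libraries of the series entered this comparison, and 13833 of the 24421 genes in the table had enough counts to be tested. C57BL/6 mice had received MitoCDNB at 5 mg/kg or vehicle containing 0.1% ethanol, and polyA RNA of the medial liver lobe was sequenced. Each of the 4 groups, vehicle and MitoCDNB at either time, had 6 libraries. The labels give a dose for MitoCDNB and 2 times, with no untreated mice, so the injection itself is shared by all 4 groups.

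MitoCDNB carries a chlorodinitrobenzene group on a lipophilic cation that draws it into mitochondria, where it was designed to remove glutathione and to block thioredoxin reductase. Glutathione and thioredoxin are the thiol systems with which mitochondria detoxify peroxides. Immediate early genes are transcribed within minutes of a stimulus without new protein synthesis, and many of their products, such as dual-specificity phosphatases, switch off the signalling that induced them. Their messenger RNAs are mostly short-lived.

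Libraries held between 25.1 and 37.2 M counts (30.3 M on average). The hepatocyte markers summed to 56100 to 84800 CPM (counts scaled to a common library size) over the 24 libraries, and none of the 13 was at 0 throughout a group. A pair of 4 h libraries, replicate 1 of vehicle and replicate 2 of MitoCDNB, stood off from all others on the second principal component. In the 1 h groups, replicates 4 to 6 of both treatments held 12 to 39 counts of the neuronal gene Snap25, which was at 0 in the other 18 libraries. The 2 times also came from separate ranges of library numbers, so time and that block cannot be told apart in the vehicle libraries. A shift of this kind that is the same in both treatments cancels in the difference between the effects. RNA came from whole tissue, so fewer cells of a type and less RNA per cell cannot be told apart.

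The effect of MitoCDNB differed between the times in 563 genes, and in most of them MitoCDNB at 1 h was the group that stood apart from the other 3. The edgeR quasi-likelihood test with Benjamini-Hochberg adjustment called these 563 genes at an adjusted p under 0.05, which is 4.07% of the genes tested. The 4 h effect was more positive in 329 of them (2.38%) and more negative in 234 (1.69%). Differences were larger on the negative side, with a median size of 1.02 on the log2 scale against 0.70 on the positive side. They ran from -5.85 for Nr4a1 to 2.83 for Cdh4, while the median over all genes tested was -0.01. Of the 183 called genes with a difference of at least 2-fold, 118 were negative and 65 positive. Without the pair of 4 h libraries that stood off, 696 genes were called, 510 of the 563 among them.

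The called genes were further described by their shape over the 4 groups, without a test. The effects at 1 h and at 4 h share no libraries with each other, but each is part of the difference. The absolute effect was larger at 1 h in 444 of the 563 genes and larger at 4 h in 119. The group whose mean lay farthest from the other 3 was MitoCDNB at 1 h in 418 genes, above the others in 161 and below them in 257. MitoCDNB at 4 h stood apart in 107 genes, 53 above and 54 below. A vehicle group stood apart in the other 38 genes. For comparison, MitoCDNB at 1 h was the farthest group, above or below, in 17% and 17.2% of all genes tested, against 28.6% and 45.6% of the called genes. In 99 called genes every MitoCDNB library of 1 h lay above each of the other 18 libraries, and in 99 every one lay below. The same held for 128 and 127 of all genes tested (0.925% and 0.918%).

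**Figure D1:**
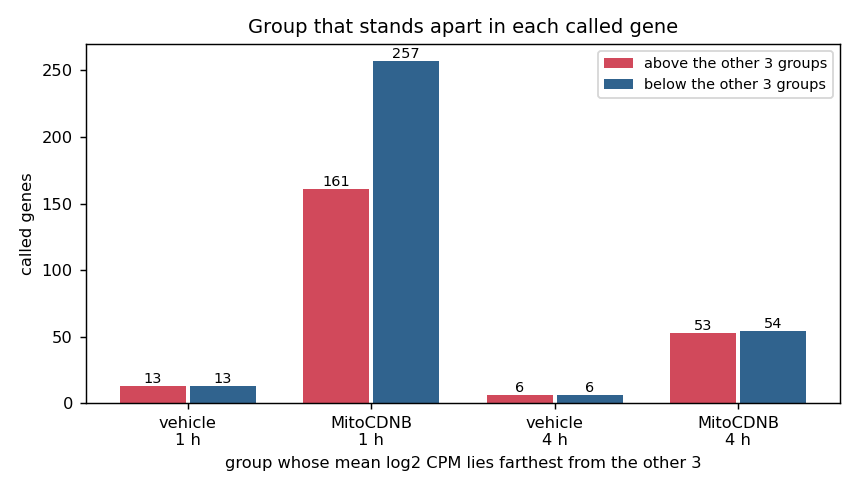
Number of genes called for a difference between the effects at 1 h and 4 h (y axis, genes) by the group whose mean log2 CPM lies farthest from the other 3 (x axis) and by side (red above, blue below). MitoCDNB at 1 h holds 161 and 257 genes, MitoCDNB at 4 h 53 and 54, and the vehicle groups 6 to 13 per bar.

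The vehicle groups moved little between the times in most of these genes. The median absolute change from vehicle at 1 h to vehicle at 4 h was 0.15 on the log2 scale over the called genes, against 0.13 over all genes tested. The same change within MitoCDNB was 0.77 over the called genes and 0.20 over all. In 490 of the 563 genes the vehicle change was under 0.5. The vehicle change was itself called in 60 of the 563, Cdh4, Foxo3, Zfp503 and Insig1 among them. The sign of the difference was the same on the linear CPM scale in every called gene. In 500 of them the effects at 1 h and 4 h had opposite signs, which largely fixes this outcome. Whether the calls hold on the linear scale was not tested.

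The genes called at 1 h had median effects near 0 at 4 h, measured in other mice. Both tests came from the same fit and shared its estimate of the spread. At 1 h the test called 373 genes higher (2.7% of those tested) and 536 lower (3.87%) under MitoCDNB. At 4 h it called 63 higher (0.455%) and 51 lower (0.369%). The 373 genes had a median log2 effect of 0.81 at 1 h and of 0.01 at 4 h. At 4 h 8 of them were called higher and 1 lower, and the effect was above 0 in 193 and below 0 in 180. The 536 genes had medians of -0.51 and 0.03, with 4 called higher and 2 lower at 4 h. Their 4 h effect was above 0 in 307 and below 0 in 229. Read the other way, the 63 genes higher at 4 h had a median of 0.76 at 4 h and 0.08 at 1 h, where 8 were called higher and 4 lower. Both sets were chosen at 1 time, which lifts their medians at that time.

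**Figure D2:**
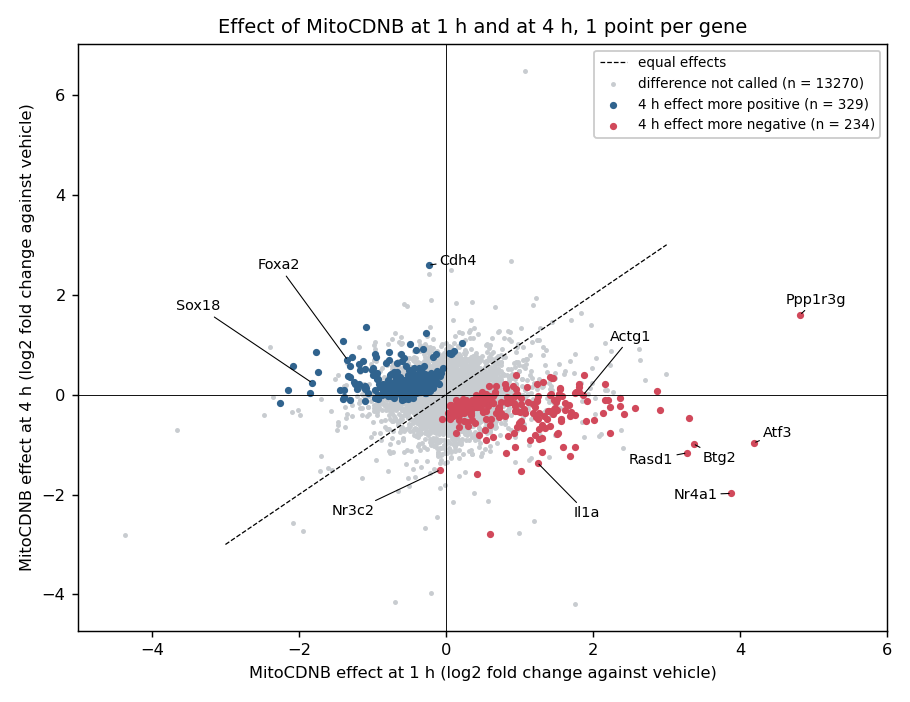
Log2 fold change of MitoCDNB against vehicle at 1 h (x axis) and at 4 h (y axis), 1 point per gene tested, with the line of equal effects dashed. Genes called with a more negative 4 h effect (red, 234) spread to the right and those with a more positive one (blue, 329) to the left, and most lie near 0 on the y axis; Cdh4 lies high on it.

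Immediate early genes were the list with the largest difference. Of 34 tested, 14 had a more negative effect at 4 h and 1, Ier5l, a more positive one, and the median difference was -1.79. At 1 h 18 of them were called higher and 1 lower under MitoCDNB, and at 4 h none was called. The 4 h effect minus the 1 h effect was below 0 in 30 of the 34. The median effect of the list was 1.19 at 1 h and -0.47 at 4 h. The members were chosen with earlier results of these data known, so their share of calls (44.1%, against 4.07% of all genes tested) is a description. In the sentences that follow, CPM values of a group are its lowest, median and highest of 6 libraries.

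Nr4a1, an orphan nuclear receptor that also induces gluconeogenic genes in liver, had the largest difference of all called genes. It stood at 1.38, 2.95 and 14.3 CPM in vehicle and at 47.8, 74.5 and 89.4 CPM in MitoCDNB at 1 h. At 4 h it stood at 0.905, 2.12 and 17.2 CPM in vehicle and at 0.832, 1.27 and 2.16 CPM in MitoCDNB. Every MitoCDNB library of 1 h was above all 18 others, and the 4 h groups overlapped. The log2 effect was 3.87 at 1 h and -1.98 at 4 h, where the adjusted p of edgeR was 0.171, and the difference was -5.85 (SE 0.916, adjusted p = 0.000703).

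Atf3, a transcription factor that many stresses induce, had 0.758, 1.44 and 4.07 CPM in vehicle and 18.9, 32.8 and 52.4 CPM in MitoCDNB at 1 h. Its 4 h values were 0.2, 1.06 and 3.69 CPM in vehicle and 0.417, 0.636 and 1.1 CPM in MitoCDNB. The groups were apart at 1 h and overlapped at 4 h, with a difference of -5.15 (SE 0.69, edgeR adjusted p = 0.000104). Btg2, which restrains cell division, reached 71, 105 and 135 CPM in MitoCDNB at 1 h against 3.38, 7.28 and 21.7 CPM in vehicle. In the 4 h mice it had 3.13, 12.1 and 34.8 CPM in vehicle and 4.86, 6.08 and 11.4 CPM in MitoCDNB, so that the vehicle libraries spread above the treated ones. Its difference was -4.36 (SE 0.691, edgeR adjusted p = 0.00076).

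Apold1, an early response gene of endothelial cells, had the smallest p of the list. It had 0.482, 0.957 and 2.05 CPM in vehicle and 9.29, 10.4 and 16 CPM in MitoCDNB at 1 h. The 4 h levels were 0.5, 0.937 and 2.1 CPM in vehicle and 0.513, 0.755 and 1.02 CPM in MitoCDNB, and the groups overlapped. The difference was -3.77 (SE 0.419, edgeR adjusted p = 5.09e-06). Jund, a subunit of the AP-1 transcription factor that is abundant in resting liver, went from a median of 87.5 to 252 CPM at 1 h, and was at 77 and 66.1 CPM at 4 h (difference -1.73, edgeR adjusted p = 3.96e-05). The small MAF protein gene Maff and the Kruppel-like factor gene Klf4 had differences of -2.82 and -2.93, and all MitoCDNB libraries of 1 h were above vehicle for both.

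Not every classical member passed the test. Fosb, a partner in AP-1, had the most negative value in the list, -5.94 with an SE of 1.77, and its edgeR adjusted p was 0.0654. Its vehicle libraries spread widely, with 2.19 ± 3.81 CPM at 1 h and 2.32 ± 4.12 CPM at 4 h (mean ± SD, n = 6). Fos had a difference of -3.46 (SE 1.72, adjusted p = 0.313, edgeR) and 22.2 ± 42.3 CPM in vehicle at 4 h. Egr1 had -2.23 (SE 1.29, adjusted p = 0.412, edgeR), with vehicle levels of 61.7 ± 48.6 CPM at 1 h and 48.8 ± 83.4 CPM at 4 h. For these genes, named after their values were seen, the SD within vehicle was close to the mean or above it.

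**Figure D3:**
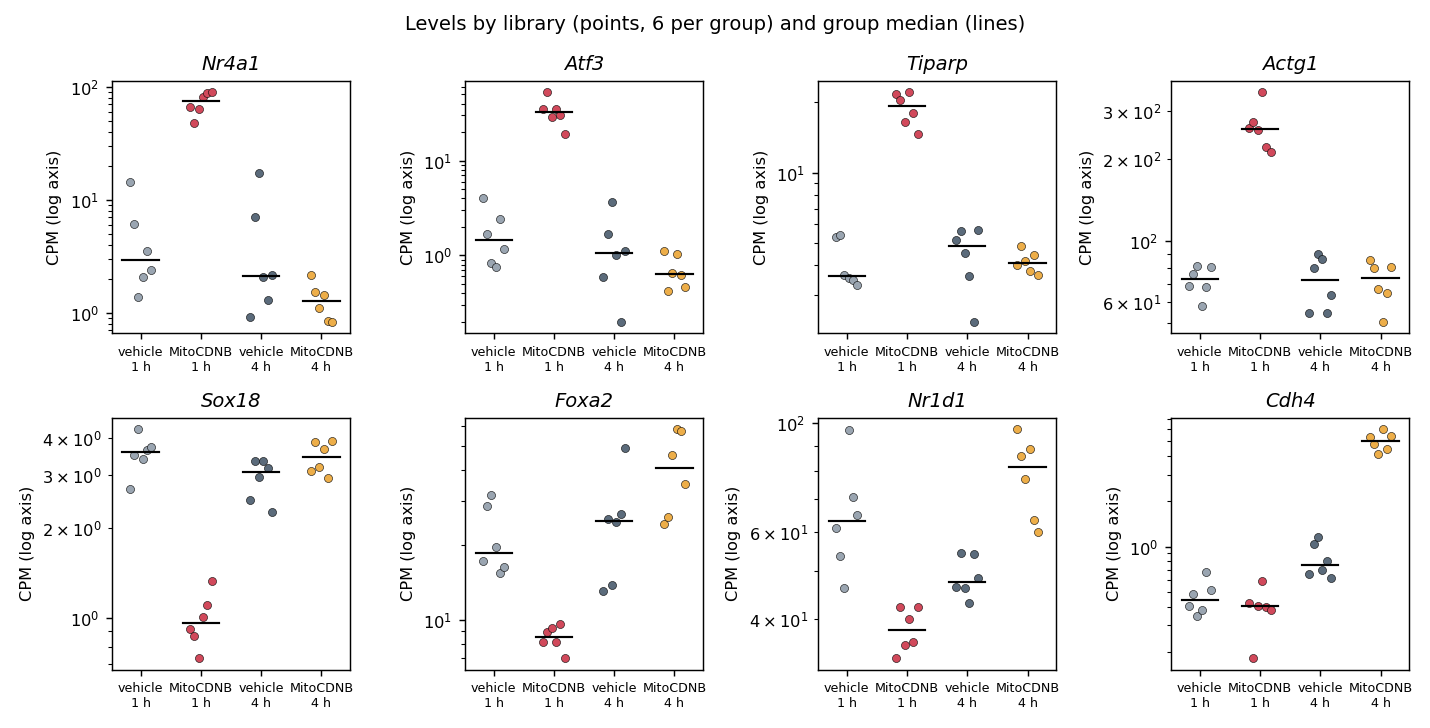
CPM of 8 genes (log y axis) in each of the 24 libraries (points, 6 per group) with the group median as a line; groups on the x axis. Nr4a1, Atf3, Tiparp and Actg1 are high in MitoCDNB at 1 h and near vehicle at 4 h, Sox18 and Foxa2 are low there, Nr1d1 is low at 1 h and high at 4 h, and Cdh4 is high in MitoCDNB at 4 h.

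Of 15 phosphatases and other feedback inhibitors of MAP kinases, 6 had a more negative 4 h effect (Dusp4, Dusp10, Dusp5, Dusp8, Dusp16 and Dusp1), 1 had a more positive one (Dusp7) and the others did not pass the test. In all 46.7% of the list was called, against 4.07% of all genes tested, and the median difference of the list was -0.65. Dusp4, a nuclear phosphatase of ERK and JNK, had 1.48, 2.26 and 5.75 CPM in vehicle and 10.6, 17.6 and 24.9 CPM in MitoCDNB at 1 h. At 4 h its groups overlapped at medians of 2.82 and 2.47 CPM (difference -2.82, SE 0.393, edgeR adjusted p = 0.000112). Dusp5, a nuclear phosphatase of ERK, had a difference of -3.23, and Dusp8, which acts on JNK and p38, of -2.80. Dusp7, a cytoplasmic phosphatase of ERK, had 3.67, 4.32 and 4.77 CPM in vehicle and 1.41, 1.73 and 2.33 CPM in MitoCDNB at 1 h, without overlap, and 4.85 and 5.57 CPM as medians at 4 h. Its difference was 1.51 (SE 0.197, edgeR adjusted p = 4.04e-05).

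Other early regulators were called in the same direction. Among 12 inducible small GTPases and RGS proteins, 3 (25%) had a more negative 4 h effect, against 1.69% of all genes tested, and none a more positive one. These were Rgs2, which shortens G protein signals, Rhob and Rasd1. Rasd1, a small G protein induced by glucocorticoids, had 4.39, 5.38 and 5.69 CPM in MitoCDNB at 1 h, above 0.207, 0.454 and 1.15 CPM in vehicle. By 4 h the medians were 0.658 and 0.41 CPM, and the difference was -4.44 (SE 0.83, edgeR adjusted p = 0.00249). Of 13 Kruppel-like factors, 4 (30.8%, against the same 1.69%) had a more negative 4 h effect (Klf2, Klf4, Klf6 and Klf3), with a list median of -0.44. Klf2 and its relatives also stand in the list of immediate early genes, so these counts are not separate.

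Promoter sequences of the called genes are given because CREB, AP-1 and serum response factor are known to act on many immediate early genes. Windows of 250 bases before to 50 after the RefSeq gene start (GRCm38.p6) were at hand for 10343 of the genes tested and for 72 of the 96 genes named by rule. The full cAMP response element TGACGTCA, which CREB and ATF factors bind and which reads the same on both strands, was in 3.13% of all windows. It was in 8 of 120 windows (6.67%) of called genes with MitoCDNB at 1 h apart and above, in 2.53% of those with MitoCDNB at 1 h below, and in 3.85% of those of the other called genes. The matches in those 8 genes are shown 5′ to 3′ on the strand of the gene with 10 bases on either side and the motif in capitals. Dusp8 held 2 of them, 107 and 63 bases before the start.
Btg2: ttcccaataaTGACGTCAgtgagcgatg
Dusp1: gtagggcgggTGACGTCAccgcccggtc
Dusp8, first: cccgctccgcTGACGTCAcctgcccccg
Dusp8, second: tggctgcaggTGACGTCAggggcttttt
Ppp1r15a: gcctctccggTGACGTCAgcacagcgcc
Ccnl1: gtcggcgtggTGACGTCAgggcggaagc
Wsb1: cctgatggtcTGACGTCAcccactacac
Zbtb21: tggtgtgggaTGACGTCAaattcaagat
Tmem183a: cgccgggtgaTGACGTCAccgggccccg

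These windows lie on the minus strand at chr1:134079304-134079331 (Btg2), chr17:26508598-26508625 (Dusp1), chr7:142095374-142095401 and chr7:142095330-142095357 (Dusp8) and chr7:45526263-45526290 (Ppp1r15a). The others are at chr3:65958250-65958277 (Ccnl1), chr11:79254716-79254743 (Wsb1), chr16:97962605-97962632 (Zbtb21) and chr1:134362026-134362053 (Tmem183a). The sizes of the differences in these genes were uneven. They ran from -0.25 in Tmem183a to -4.36 in Btg2, with -2.51 in the ERK, JNK and p38 phosphatase gene Dusp1. The windows of Nr4a1 and Atf3 did not hold these letters.

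The other motifs were searched on both strands as well. The antioxidant response element core TGACNNNGC was in 14.9% of all windows and in 31 of 120 (25.8%) with MitoCDNB at 1 h above, against 13.1% with it below. For the 120 windows against all, the AP-1 site TGACTCA was in 5.0% against 3.81%, the E-box CACGTG in 10.8% against 10.1% and the CArG box of serum response factor in 1.67% against 1.3%. The FOXO site TGTTTAC was in 2.5% against 2.59%, the glucocorticoid response motif AGAACA in 15.8% against 12.9%, and the heat shock core GAANNTTC in 5.83% against 5.72%. The D-box TTATGTAA was in 1 of the 120 windows (0.833% against 0.561%) and the composite TGATGCAA of C/EBP and ATF factors in 2 (1.67% against 0.715%). These shares were not tested.

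The 10 genes with the smallest p held their calls in every omission of a library and in every other alternative tried. They were Sox18, Tmcc3, Impact, Cdh4, Tiparp, Skil, Actg1, Bcl2l11, Apold1 and Ifrd1. Their choice by p in the full fit largely fixes that they kept their calls. In 8 of the 10 genes MitoCDNB at 1 h was above the other groups. Tiparp, a mono-ADP-ribosyltransferase that restrains the aryl hydrocarbon receptor, had 3.29, 3.59 and 5.42 CPM in vehicle and 14.7, 19.3 and 22.1 CPM in MitoCDNB at 1 h. Its 4 h values were 2.3, 4.83 and 5.67 CPM in vehicle and 3.64, 4.1 and 4.85 CPM in MitoCDNB. The groups were apart at 1 h and overlapped at 4 h, with a difference of -2.30 (SE 0.244, edgeR adjusted p = 2.66e-06).

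By the GENCODE annotation of mm10 the 12 genes placed here are protein-coding. Nr4a1 spans chr15:101254269-101274795, Atf3 chr1:191170296-191218039, Btg2 chr1:134075170-134079120 and Apold1 chr6:134981718-134986836. Tiparp spans chr3:65528410-65555518, Tmcc3 chr10:94311949-94590956, Actg1 chr11:120345690-120348542 and Sox18 chr2:181669836-181671640. Foxa2 spans chr2:148042877-148046969, Nr1d1 chr11:98767932-98775333, Cdh4 chr2:179442431-179899373 and Pard3 chr8:127063893-127612286.

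Tmcc3, which codes for a membrane protein of the endoplasmic reticulum, had a narrow spread in all groups. It had 9.57, 11.6 and 12.6 CPM in vehicle and 28.2, 30.1 and 33.7 CPM in MitoCDNB at 1 h, and medians of 10.3 and 11.1 CPM at 4 h (difference -1.41, SE 0.145, edgeR adjusted p = 2.66e-06). Skil, a repressor of SMAD signalling, went from a median of 10.6 to 30.2 CPM at 1 h and had 8.8 and 8.5 CPM at 4 h. Impact, which restrains the eIF2 kinase GCN2, went from 6.29 to 13.5 CPM at 1 h and had 7.82 and 6.63 CPM at 4 h. Bcl2l11, whose product Bim starts apoptosis at mitochondria, had 2.3, 2.71 and 4.07 CPM in vehicle and 10.6, 12.3 and 17.2 CPM in MitoCDNB at 1 h. At 4 h its groups overlapped at medians of 3.22 and 4.05 CPM, and the difference was -1.95 (SE 0.219, edgeR adjusted p = 4.79e-06).

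Actg1, which codes for cytoplasmic gamma-actin, was the most abundant of the 10. It had 57.9, 72.5 and 81 CPM in vehicle and 213, 258 and 351 CPM in MitoCDNB at 1 h. Later, at 4 h, it had 54.4, 71.8 and 90.2 CPM in vehicle and 50.8, 73.3 and 85.5 CPM in MitoCDNB. The effects of 1.87 at 1 h and -0.01 at 4 h gave a difference of -1.87 (SE 0.206, edgeR adjusted p = 4.79e-06). The 250 bases before its RefSeq start, at chr11:120348496-120348745 of GRCm38.p6 on the minus strand, hold an E-box beginning 141 bases and a CArG box beginning 90 bases before it, both in capitals. Actin genes are textbook targets of serum response factor, which binds the CArG box. A glucocorticoid response motif in the same window was not marked.
Actg1: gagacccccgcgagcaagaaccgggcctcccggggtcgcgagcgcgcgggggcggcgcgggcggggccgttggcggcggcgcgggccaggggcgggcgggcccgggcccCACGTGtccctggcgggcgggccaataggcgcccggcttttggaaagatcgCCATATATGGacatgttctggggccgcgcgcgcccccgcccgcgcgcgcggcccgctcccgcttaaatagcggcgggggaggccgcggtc

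**Figure D4:**
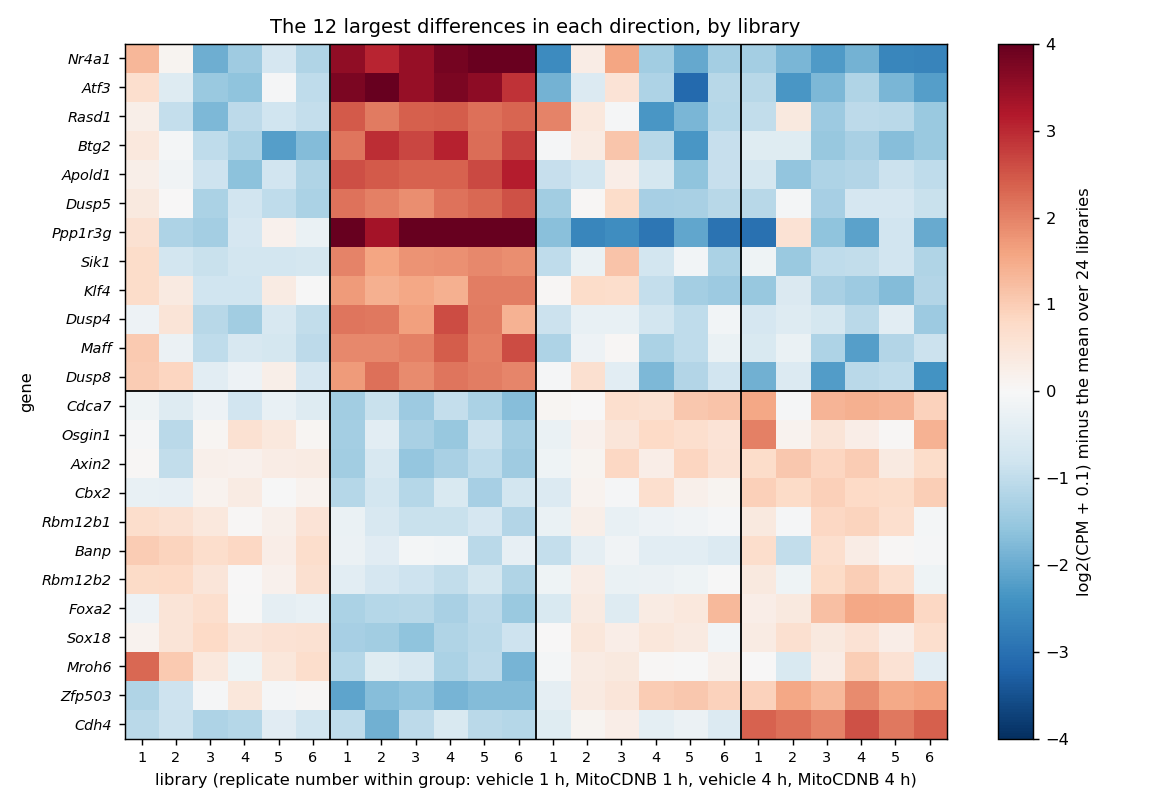
Log2(CPM + 0.1) minus the mean of the gene over the 24 libraries (colour, ending at -4 and 4) for the 12 largest negative and the 12 largest positive differences (rows), by library (columns; replicates 1 to 6 of vehicle 1 h, MitoCDNB 1 h, vehicle 4 h and MitoCDNB 4 h). The upper rows are red and the lower rows blue in MitoCDNB at 1 h, except Cdh4, which is red in MitoCDNB at 4 h.

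Genes of fasting metabolism, glucocorticoid response and the clock were called in shares of 18.5%, 17.9% and 21.7%. These were below the 44.1% of immediate early genes and above the 4.07% of all genes tested. Of 27 genes of gluconeogenesis and the CREB or fasting response, 4 had a more negative 4 h effect (Foxo3, Sik1, Ppp1r3g and Per1) and 1, Cps1, a more positive one, with a list median of -0.06. Foxo3, a transcription factor restrained by insulin, had 12.4, 19 and 22.9 CPM in vehicle and 43.8, 63.2 and 82.8 CPM in MitoCDNB at 1 h. Its levels at 4 h were 7.35, 12.3 and 13 CPM in vehicle and 11.1, 13.2 and 16 CPM in MitoCDNB, and the groups overlapped (difference -1.61, SE 0.219, edgeR adjusted p = 7.91e-05). It was the single called gene among 21 of insulin signalling and FOXO targets (4.76%). Sik1, a kinase that CREB induces and that restrains its coactivators, had a difference of -2.99 (edgeR adjusted p = 0.00117).

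Ppp1r3g, which brings protein phosphatase 1 to glycogen, had the largest effect at 1 h among these genes but a less certain difference. It had 0.933, 1.82 and 3.91 CPM in vehicle and 26.7, 59.1 and 85.1 CPM in MitoCDNB at 1 h. At 4 h vehicle was lower than at 1 h, at 0.24, 0.355 and 0.731 CPM, and MitoCDNB overlapped it at 0.236, 0.665 and 3.85 CPM. The effect was 4.82 at 1 h and 1.60 at 4 h, and the difference -3.22 (SE 0.834, edgeR adjusted p = 0.0301). This call was lost without vehicle replicate 1, 3 or 5 of 4 h (edgeR adjusted p of 0.0824, 0.0525 and 0.0658) and without MitoCDNB replicate 3 of 4 h (0.0502).

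Of 28 glucocorticoid-responsive genes, 5 had a more negative 4 h effect (Sgk1, Rhob, Nr3c2, Per1 and Dusp1) and none a more positive one, with a median of -0.30. Sgk1, a kinase of ion and nutrient transport, had 10.3, 14.5 and 20.4 CPM in vehicle and 44.6, 46.3 and 57.9 CPM in MitoCDNB at 1 h, and medians of 10.4 and 8.36 CPM at 4 h. Its difference was -2.04 (SE 0.311, edgeR adjusted p = 0.000406). Of 23 clock genes, 4 had a more negative effect at 4 h (Bhlhe40, Rora, Nfil3 and Per1) and 1, Nr1d1, a more positive one. Bhlhe40, a repressor of the clock that is also a hypoxia target, had a median of 53.1 CPM in vehicle and 175 CPM in MitoCDNB at 1 h, without overlap, and 81 and 84.6 CPM at 4 h (difference -1.78, edgeR adjusted p = 0.00271). It was the single called gene among 20 hypoxia targets (5%, against 4.07% of all genes tested).

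In the genes with a more positive 4 h effect, MitoCDNB mostly stood below the other groups at 1 h. Sox18, a transcription factor of endothelial differentiation, had the smallest p of all genes tested. It had 2.7, 3.58 and 4.28 CPM in vehicle and 0.731, 0.961 and 1.32 CPM in MitoCDNB at 1 h. At 4 h it had 2.27, 3.07 and 3.35 CPM in vehicle and 2.94, 3.44 and 3.92 CPM in MitoCDNB. All 6 MitoCDNB libraries of 1 h lay below the other 18, and the 4 h groups overlapped (difference 2.06, SE 0.198, edgeR adjusted p = 1.79e-06). It was the single called gene of 10 SOX factors (10%, against 4.07% of all genes tested).

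Of 20 hepatocyte transcription factors, 2 (10%) had a more positive 4 h effect, among them Foxa2, against 2.38% of all genes tested. None had a more negative one, the others did not pass the test, and the median difference was 0.23. Foxa2, a pioneer factor of hepatocyte genes, had 15.4, 18.5 and 31.6 CPM in vehicle and 6.99, 8.51 and 9.62 CPM in MitoCDNB at 1 h. Its 4 h levels were 13.1, 25 and 48.9 CPM in vehicle and 24.2, 40.5 and 58.3 CPM in MitoCDNB. The 1 h groups were apart and the 4 h groups overlapped, with a difference of 2.04 (SE 0.409, edgeR adjusted p = 0.00496).

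The 12 largest positive differences ran from 1.53 to 2.83. Zfp503, a zinc finger repressor, had 0.389, 0.531 and 0.609 CPM in MitoCDNB at 1 h, below 0.808, 1.93 and 2.79 CPM in vehicle, and medians of 3.36 and 5.96 CPM at 4 h (difference 2.61, edgeR adjusted p = 0.000104). Rbm12b1 and Rbm12b2, neighbouring paralogs on chromosome 4 that code for RNA-binding proteins, had differences of 1.79 and 1.87. Their counts may be split between them, since the handling of reads that match both is not given in the sources used here. Axin2, a WNT target that also inhibits WNT signalling, had medians of 4.02 and 1.32 CPM at 1 h and of 4.8 and 6.2 CPM at 4 h (difference 1.67, edgeR adjusted p = 0.00114). Osgin1, an NRF2 target, had 1.66 with an adjusted p of 0.0444 by edgeR and lost its call in 18 of the 24 omissions (adjusted p of up to 0.0814, without vehicle replicate 4 of 1 h).

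In 500 of the 563 called genes the 2 effects had opposite signs, but in 45 both were at least 0.58 in absolute log2. Of these, 30 had estimates above 0 at 1 h and below 0 at 4 h under MitoCDNB, and 15 the reverse. In most of them at least 1 of the 2 effects was not called. Over all genes tested, 1 was called higher at 1 h and lower at 4 h, and 4 the reverse. Nr1d1, which codes for the clock repressor REV-ERB alpha, was among those 4. It had 46.2, 63.2 and 96.9 CPM in vehicle and 33.3, 37.9 and 42.3 CPM in MitoCDNB at 1 h. The 4 h values were 43.1, 47.5 and 54.4 CPM in vehicle and 59.9, 81.4 and 97.2 CPM in MitoCDNB. The treated libraries lay below vehicle at 1 h and above it at 4 h without overlap, with called effects of -0.78 and 0.69 (edgeR adjusted p of 0.000617 and 0.0138) and a difference of 1.47 (SE 0.194, adjusted p = 5.51e-05).

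Cbx2, a subunit of polycomb repressive complex 1, had the same form. It had 3.51, 4.63 and 5.54 CPM in vehicle and 1.7, 2.28 and 2.9 CPM in MitoCDNB at 1 h, then 3.03, 4.8 and 7.08 CPM in vehicle and 7.49, 8.22 and 8.85 CPM in MitoCDNB at 4 h. Neither pair of groups overlapped, and the difference was 1.71 (SE 0.224, edgeR adjusted p = 4.12e-05). Il1a, a proinflammatory cytokine, went the other way. It had medians of 3.85 and 9.12 CPM at 1 h and of 3.74 and 1.51 CPM at 4 h, with overlap at both times and called effects of 1.25 and -1.37 (edgeR adjusted p of 0.0105 and 0.0463). Its difference was -2.61 (SE 0.442, edgeR adjusted p = 0.000993). For Atf3, Klf2, Nr4a1, Rasgef1b, Rbm12b1 and Zfp503, the other genes named for opposite effects, the 4 h effect alone was not called (edgeR adjusted p from 0.0692 for Klf2 to 0.45 for Atf3).

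In 107 called genes MitoCDNB at 4 h was the group apart. Cdh4, which codes for R-cadherin, had 0.345, 0.444 and 0.676 CPM in vehicle and 0.181, 0.403 and 0.594 CPM in MitoCDNB at 1 h. At 4 h it had 0.618, 0.751 and 1.16 CPM in vehicle and 4.1, 5.04 and 6.02 CPM in MitoCDNB. The groups overlapped at 1 h and were apart at 4 h, with effects of -0.23 and 2.59 and a difference of 2.83 (SE 0.299, edgeR adjusted p = 2.66e-06). Cps1, the first enzyme of the urea cycle, had medians of 2900.0 and 2771 CPM at 1 h and of 2684 and 3823 CPM at 4 h, where the groups were apart (difference 0.53, SE 0.129, edgeR adjusted p = 0.0158). Capn15 had a difference of 0.70 and Fam109a of 1.11.

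Pard3, a scaffold of cell polarity, was the 4 h gene with the smallest p on the lower side. It had 34.3, 41.8 and 43.6 CPM in vehicle and 30.4, 31.9 and 33.9 CPM in MitoCDNB at 4 h, without overlap, and medians of 41.2 and 45.6 CPM at 1 h (difference -0.48, SE 0.0817, edgeR adjusted p = 0.000776). Nr3c2, the mineralocorticoid receptor gene, had 3.41, 8.07 and 11.9 CPM in vehicle and 2.18, 2.75 and 3.46 CPM in MitoCDNB at 4 h, overlapping in a narrow range, and medians of 6.76 and 6.49 CPM at 1 h. Its difference was -1.43 (SE 0.364, edgeR adjusted p = 0.0253). The nucleotide-cleaving ectoenzyme gene Enpp3 had -0.68. Ugt2b35, a glucuronidation gene with near-identical paralogs and therefore uncertain counts, had -0.55.

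A vehicle group stood apart in 38 called genes, so part of their difference lay in the controls. Banp, which codes for a nuclear matrix-associated DNA-binding protein, had 6.8, 9.76 and 11.5 CPM in vehicle at 1 h and 2.86, 4.19 and 5.16 CPM in vehicle at 4 h. MitoCDNB had 2.63, 4.62 and 5.32 CPM at 1 h and 2.79, 6.38 and 9.27 CPM at 4 h. The vehicle groups did not overlap, and the vehicle change of -1.22 (edgeR adjusted p = 0.00141) stands beside a difference of 1.79 (adjusted p = 0.000867). Gadd45a, a stress and DNA damage gene, had a median of 1.71 CPM in vehicle at 1 h, below 7.95 CPM in MitoCDNB at 1 h and 4.53 and 3.21 CPM in the 4 h groups. Its vehicle change was 1.41 (edgeR adjusted p = 0.0153) and its difference -2.51 (adjusted p = 0.00228). Lrfn4 had medians of 3.96 and 3.12 CPM at 1 h, and of 2.07 and 3.95 CPM at 4 h, where vehicle lay below MitoCDNB without overlap (difference 1.24, edgeR adjusted p = 0.0047).

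The thiol systems that MitoCDNB addresses held 1 call in 2 lists, 0% of the mitochondrial and 5% of the cytosolic members, against 4.07% of all genes tested. Among the 22 tested genes of the mitochondrial part of these systems, edgeR called none, 2 had an unadjusted p under 0.05, and DESeq2 and limma-voom called none either. Prdx3, the mitochondrial peroxiredoxin that thioredoxin 2 reduces, had the smallest p of the list. It had medians of 58.7 and 53.6 CPM at 1 h and of 55.9 and 59.6 CPM at 4 h (difference 0.21, SE 0.0982, edgeR adjusted p = 0.26). Of 20 genes of the cytosolic system, 1 was called: Gclc, the catalytic subunit of the rate-limiting enzyme of glutathione synthesis. It had medians of 226 and 285 CPM at 1 h and of 146 and 111 CPM at 4 h, with overlap at both times, and a difference of -0.72 (SE 0.192, edgeR adjusted p = 0.0308). Neither of its effects was called alone, and its call was lost in 9 of 24 omissions, at most to 0.0604 without MitoCDNB replicate 3 of 4 h.

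Of 39 NRF2 targets, 1 had a more positive 4 h effect (Osgin1) and 2 a more negative one (Ugt2b35 and Gclc), with a median difference of 0.03. Together they made up 7.69% of the list, against 4.07% called over all genes tested. NRF2 is the transcription factor that electrophiles release to induce glutathione synthesis and detoxification genes. Of 38 nuclear-encoded subunits of the respiratory chain none was called by edgeR, DESeq2 or limma-voom, and none had an unadjusted p under 0.05. With the median difference at 0.04, Ndufs7 had the smallest p (difference 0.14, edgeR adjusted p = 0.417).

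**Figure D5:**
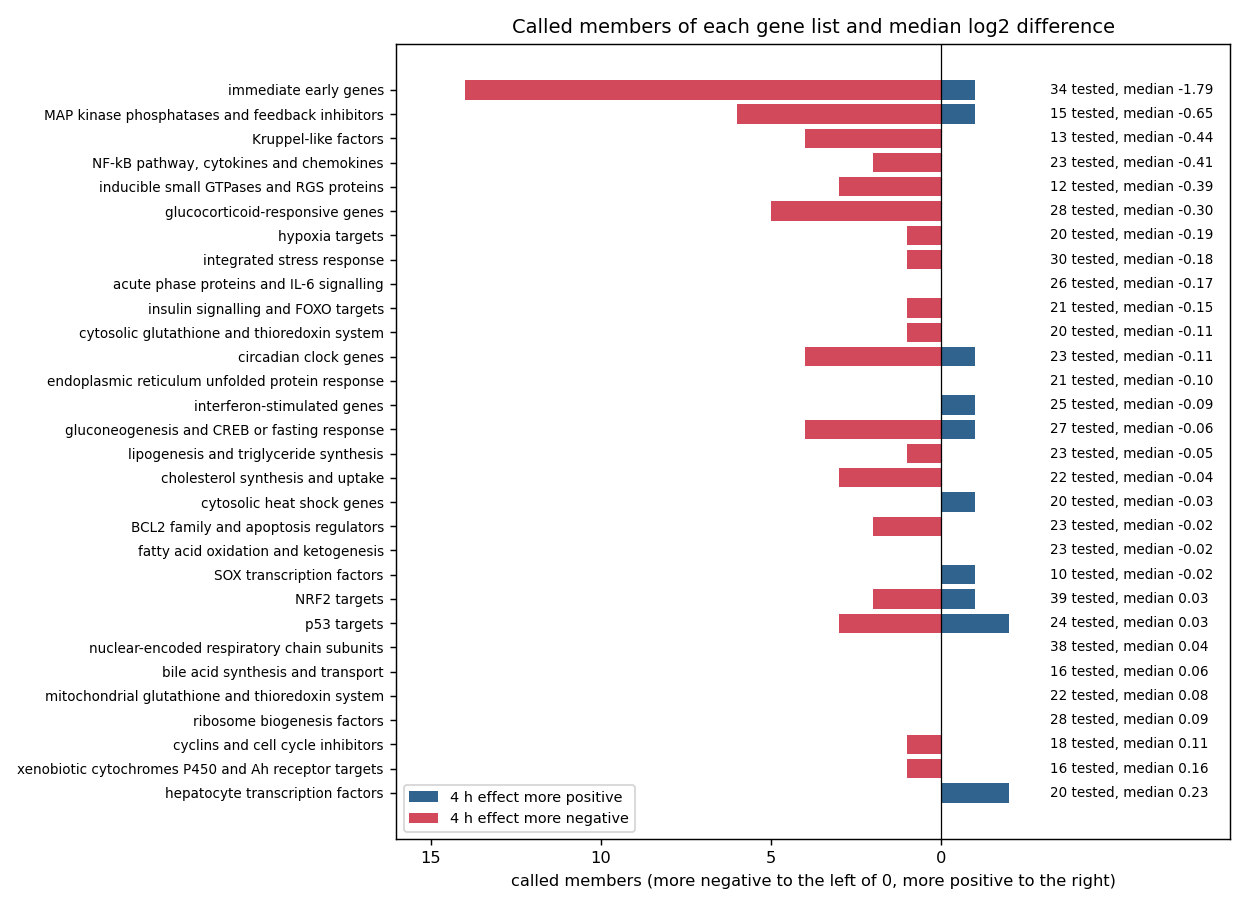
Called members of the 30 pathway lists (bars, number of genes; red to the left for a more negative and blue to the right for a more positive 4 h effect), ordered by the median log2 difference, which is printed with the number of tested members. Immediate early genes have 14 called to the left and 1 to the right, and 7 lists have no called member.

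The integrated stress response, heat shock and unfolded protein lists held 1, 1 and 0 calls, or 3.33%, 5% and 0% of their members, against 4.07% of all genes tested. The gene called among the 30 of the integrated stress response was Ppp1r15a, the phosphatase subunit that ends this response by dephosphorylating eIF2. It had 5.11, 8.51 and 16.8 CPM in vehicle and 17.7, 18.6 and 25.2 CPM in MitoCDNB at 1 h, without overlap, and medians of 11 and 7.53 CPM at 4 h (difference -1.55, SE 0.339, edgeR adjusted p = 0.00895). Of 20 cytosolic heat shock genes, the co-chaperone gene Bag3 was called, with medians of 31.5 and 18.1 CPM at 1 h and of 23.4 and 23.2 CPM at 4 h. Its difference of 0.83 (edgeR adjusted p = 0.0374) lost its call in 14 of 24 omissions, at most to 0.0701 without MitoCDNB replicate 4 of 4 h. Of 21 genes of the unfolded protein response of the endoplasmic reticulum, edgeR and limma-voom called none and DESeq2 2, and 2 had an unadjusted p under 0.05. Dnajb9 had the smallest p among them (difference 0.75, edgeR adjusted p = 0.0712).

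Of 24 p53 targets, 2 had a more positive 4 h effect (Zmat3 and Aen) and 3 a more negative one (Btg2, Gadd45a and Trp53inp1), with a median of 0.03. In this list 20.8% were called. Over all genes tested the share was 4.07%, with 2.38% more positive and 1.69% more negative. Of 23 apoptosis regulators of the BCL2 family and related genes, 2 (8.7%), Bcl2l11 and Bcl2a1b, had a more negative effect. The latter shares reads with near-identical copies, so its value is uncertain. Of 23 genes of the NF-kB pathway, cytokines and chemokines, 2 (8.7%), Il1a and the NF-kB subunit gene Rel, had a more negative effect, and the median was -0.41. The call of Rel (edgeR adjusted p = 0.0496) was lost in 16 of 24 omissions, at most to 0.106 without vehicle replicate 2 of 4 h. Of 25 interferon-stimulated genes, 1 (4%) had a more positive effect: Stat2, a signal transducer of interferon receptors. It had medians of 50.5 and 31.1 CPM at 1 h, without overlap, and of 57 and 50.4 CPM at 4 h (difference 0.63, edgeR adjusted p = 0.00393).

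Of 22 genes of cholesterol synthesis and uptake, 3 (13.6%) had a more negative 4 h effect, against 1.69% of all genes tested, and none a more positive one, with a median of -0.04. Among them was Insig1, a sterol sensor that is also the single called gene among 23 of lipogenesis (4.35%). It had 135, 203 and 272 CPM in vehicle and 297, 312 and 347 CPM in MitoCDNB at 1 h, without overlap, and medians of 104 and 97.7 CPM at 4 h. Its difference was -0.66 (SE 0.19, edgeR adjusted p = 0.0496). This call was lost in 19 of 24 omissions, at most to 0.0892 without MitoCDNB replicate 5 of 4 h.

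Of 16 xenobiotic cytochromes P450 and Ah receptor targets 1 (6.25%) was called, Tiparp, and of 18 cyclins and cell cycle inhibitors 1 (5.56%), Ccnl1 (difference -0.88, edgeR adjusted p = 0.0094). Over all genes tested 4.07% were called. No gene of fatty acid oxidation and ketogenesis (23 tested) was called by edgeR, DESeq2 or limma-voom, and none had an unadjusted p under 0.05. No gene of bile acid synthesis and transport (16), acute phase and IL-6 signalling (26) or ribosome biogenesis (28) was called by edgeR or DESeq2. In these 3 lists 1, 1 and 5 genes had an unadjusted p under 0.05, and limma-voom called 1, 1 and 0.

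Markers of other liver cell types were counted beside these results. Of 17 liver endothelial cell markers, 3 (17.6%, against 1.69% of all genes tested) had a more negative 4 h effect: Kdr, Clec4g and Egfl7. None had a more positive one. The median difference of the list was -0.01, and 10 of the 17 differences were below 0. In the 4 h comparison 2 of the markers were called higher and 4 lower under MitoCDNB. The summed level of the 17 lay between 360 and 435 CPM in vehicle and 391 and 477 CPM in MitoCDNB at 1 h. At 4 h it lay between 379 and 440 CPM in vehicle and 374 and 455 CPM in MitoCDNB. The groups overlapped, none of the 17 was at 0 throughout a group, and the median effect of the list at 1 h, where Sox18 was lower under MitoCDNB, was 0.08. Kdr, the main receptor of VEGF, had medians of 36.6 and 38 CPM at 1 h and of 38.1 and 27.4 CPM at 4 h. The 3 calls were lost in 7, 14 and 20 of the 24 omissions, at most to edgeR adjusted p of 0.0616 for Kdr without MitoCDNB replicate 6 of 1 h, 0.0752 for Clec4g without MitoCDNB replicate 4 of 4 h and 0.0844 for Egfl7 without MitoCDNB replicate 5 of 4 h.

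Of 7 neutrophil markers tested, S100a9 and S100a8, the subunits of calprotectin, had a more negative 4 h effect (28.6%, against 1.69% of all genes tested). S100a9 had 0.999, 1.79 and 2.52 CPM in vehicle and 2.56, 3.48 and 4.97 CPM in MitoCDNB at 1 h, and medians of 1.04 and 0.373 CPM at 4 h. The groups were apart at 1 h and overlapped at 4 h (difference -2.54, SE 0.501, edgeR adjusted p = 0.00342). S100a8 had a difference of -2.46 (edgeR adjusted p = 0.0306), and its call was lost in 8 omissions, at most to 0.0684 without vehicle replicate 2 of 4 h. The summed neutrophil markers reached 140 CPM in vehicle replicate 1 of 4 h, of which Lcn2 made up 135 CPM, and 2.86 to 26 CPM in the other 23 libraries. None of the markers in the table was at 0 throughout a group. The part of these cells in any other difference was not tested.

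Of 5 T and natural killer cell markers, 1 (20%, against 4.07% of all genes tested) was called, Gzma (difference -2.64, edgeR adjusted p = 0.0229, and 0.0606 without vehicle replicate 4 of 4 h). Of 8 cholangiocyte and gallbladder markers, 1 (12.5%) was called, Krt23 (difference -2.02, edgeR adjusted p = 0.0211). At an unadjusted p under 0.05 there were 7, 6 of them negative, the median difference was -1.42, and the median effect was 1.02 at 1 h, where 2 were called higher, and -0.18 at 4 h. The summed level in MitoCDNB at 1 h was 24.5 to 56.6 CPM against 21.2 to 29.4 CPM in vehicle, and its part in any other difference was not tested. Of 13 hepatocyte markers, Cps1 alone was called (7.69%). No marker of Kupffer cells and macrophages (12 tested), B cells (4), stellate cells (14), erythroid cells (7) or brain (10) was called by edgeR or DESeq2. At an unadjusted p under 0.05 there were 3, 1, 1, 0 and 1 such markers, and limma-voom called 1 of Kupffer cells and none of the others. Differences below 0 were found in 11 of 12 Kupffer cell (median -0.40), 4 of 4 B cell (-0.73), 7 of 7 erythroid (-0.58) and 4 of 14 stellate cell markers (0.23), and in 6 of 10 brain transcripts (-0.10). Their part in the called differences was not tested.

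The count of calls was lower within each set of 1 h libraries. With 1 h replicates 1 to 3 only, 150 genes were called, and with replicates 4 to 6 only 275, each with 6 libraries fewer than the full fit. Of the 12 largest negative differences, 8 were then not called with replicates 1 to 3 (Nr4a1, Sik1, Dusp5, Klf4, Maff, Rasd1, Dusp8 and Ppp1r3g) and 1 with replicates 4 to 6 (Ppp1r3g). Of the 12 largest positive ones, these were 4 (Axin2, Foxa2, Cdca7 and Osgin1) and 3 (Foxa2, Cdca7 and Osgin1). All 563 genes kept the direction of their difference in both sets. They were chosen in a fit that held both sets, which largely fixes this outcome.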

How the data were processed

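RNA-seq was measured in 24 libraries, 6 in each of 4 groups taken from the sample titles. The authors deposited 1 table of raw counts, with gene symbols as rows. The submitters' processing notes name the build mm10 and the tools HISAT2, Trim Galore, DESeq2 and CASAVA 1.8.4. How reads were counted, with which annotation and strand setting, is not given in the sources used here. Overlapping genes and near-identical paralogs are therefore uncertain. Per the labels' protocols, replicates are mice and libraries were made with the NEBNext Ultra kit.

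Of 24421 genes, 4653 had no count. The function filterByExpr (minimum count 10, minimum total 15) kept 13833. The genes left out held 0.0306% of the counts. After TMM scaling, edgeR 4.0.16 (R 4.3.3) fitted the counts, and its robust quasi-likelihood F test was used. All 4 groups were fitted together. Benjamini-Hochberg adjustment ran over all genes tested, with calls at an adjusted p under 0.05. Depth was 25.1 to 37.2 M counts per library, and the biological coefficient of variation 0.179. On simulated data with 13717 genes, 25.4% of 1.5-fold, 77.6% of 2-fold and 100% of 4-fold simulated differences were found, with 2 false calls. No 2 libraries of a group were duplicates: over 60 pairs, the chi-square per degree of freedom of the counts was 16.2 to 577.

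Genes named, 96, were the 12 largest called differences in each direction with a group mean of at least 2 CPM and without predicted genes, clones and pseudogenes. Added were the 10 smallest p, the 3 smallest p for each group apart, up to 3 called members per list (or the member with the smallest p) and the 8 smallest p with opposite effects of at least 0.58. Other genes were named after their values were seen. The members, the 40 gene lists, the rules and the tests were chosen with earlier results of these data known. Coordinates are matched by symbol, for 95 of the 96. Promoter sequences are from RefSeq (GRCm38.p6). Of the 4 promoters picked by p, that of Actg1 is printed, as the others held none of the motifs marked. Marked were the cAMP response element, AP-1 site, E-box, CArG box and antioxidant response element core. Of the motifs not marked, the window of Tmcc3 held a heat shock core and that of Bcl2l11 a FOXO site. Alternatives were other scalings and filters, DESeq2 1.42.0, limma 3.58.1 (voom), sva 3.50.0, replicate blocks, library number, stricter thresholds, sets of libraries and leaving out each library. No column of the table was left out. Some genes that the rule named are not reported here.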

Additional observations from a re-analysis of the deposited data

Results flagged for a closer look

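The effect of MitoCDNB differed between 1 h and 4 h in 563 genes by the test of the difference itself. Among 31 genes named by size or smallest p, the highest or lowest library of each group of 6 was compared with its neighbours, and 5 of 124 gene and group pairs held a library far from the rest. Chance gives about 1 in 20. Apold1 was highest in MitoCDNB replicate 6 of 1 h, at 16 CPM. Banp was lowest in MitoCDNB replicate 5 of 1 h, at 2.63 CPM. Axin2 was lowest in vehicle replicate 2 of 1 h, at 1.76 CPM. Sik1 was highest in vehicle replicate 1 of 1 h, at 29 CPM. Rasd1 was highest in MitoCDNB replicate 2 of 4 h, at 1.28 CPM. All 5 genes kept their calls in each omission of a single library.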

How the results depend on the processing

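All 563 differences kept their direction under every alternative in which the gene was tested. The genes were chosen in the full fit and every alternative reused its libraries, which largely fixes this outcome. Counts of calls (in all, more positive, more negative at 4 h) were 554, 320 and 234 with median-of-ratios size factors, 618, 406 and 212 with upper quartile scaling, 481, 286 and 195 without a count filter, and 745, 416 and 329 with DESeq2. They moved further with limma-voom (913, 499 and 414), an adjusted p under 0.01 (231, 128 and 103) and a minimum of 2-fold (183, 65 and 118). With fewer samples, they were 150, 102 and 48 for 1 h replicates 1 to 3 and 275, 137 and 138 for replicates 4 to 6. Leaving out 1 library gave 439 to 696, 249 to 400 and 185 to 296 calls. The lowest total was without MitoCDNB replicate 3 of 4 h and the highest without MitoCDNB replicate 2 of 4 h; why was not tested. Without both libraries that lay apart it was 696. A replicate block within each time gave 504, 301 and 203 calls, with 431 of the 563 genes among them. A block of 6 numbers over all groups gave 541, 312 and 229, with 494 of the 563. Whether replicate numbers pair the samples stayed undecided. Same-numbered vehicle and MitoCDNB libraries of a time had neighbouring library numbers. Their correlation ran from -0.213 to 0.265, and the number was the best partner in 4 of 12 pairs. Of the 84 called genes that are named, 69 kept the call in all 24 omissions and 15 lost it in at least 1. Under the other alternatives 118 of 1341 values lost the call, 46 with 1 h replicates 1 to 3 and 26 with replicates 4 to 6. At this depth and spread, most differences of 1.5-fold were missed in simulated data (25.4% recovered).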

Other observations

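Families of genes were counted by symbol after their values were seen, so the counts are descriptions. Of 319 tested zinc finger genes whose symbols begin with Zfp, 33 were called (10.3%, against 4.07% of all genes tested), 30 of them with a more positive effect at 4 h. The median effect over the 319 genes was -0.20 at 1 h and 0.02 at 4 h, and in 29 of the 33 called genes MitoCDNB at 1 h was the group apart. Where Zfp genes are close relatives of each other, reads may be split between them. Of 40 genes for RNA-binding motif proteins (Rbm), with a median difference of 0.10, 7 were called (17.5%). All had a more positive 4 h effect, against 2.38% of all genes tested: Rbm12b1, Rbm12b2, Rbm10, Rbm15b, Rbm5, Rbmx and Rbm14. Of 15 genes for CDC-like kinases and SR splicing factors (Clk and Srsf), with a median difference of 0.14, 6 were called (40%, against 4.07% of all genes tested). They were Srsf5, Srsf2, Clk3, Clk1, Srsf1 and Clk2, 5 more positive and 1 more negative at 4 h. Of 7 UDP-glucuronosyltransferase genes of the Ugt2b family, 3 (42.9%) were called (Ugt2b38, Ugt2b35 and Ugt2b5), all with a more negative 4 h effect, against 1.69% of all genes tested. Their median effect was 0.06 at 1 h and -0.30 at 4 h, and their near-identical sequences make the count of each uncertain.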
